A study of Mus musculus with 6 samples.

Results

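The expression of 8 long noncoding RNAs known from neurons (Malat1, Meg3, Neat1, Miat, Snhg11, Gas5, Rian and Mirg) was examined in the retinas of NMDA-injured mice. They were chosen by symbol. In the whole series, 25935 genes have an Ensembl transcript in every library's file. Of the 8, 7 had a row and a value above 0 in at least 1 library, 5 of them had a mean of at least 1 FPKM, and Miat had no row. FPKM counts the fragments of a transcript per kilobase of its length and relative to the fragments of its library. The mice were wild type C57BL/6 at postnatal week 5 by the labels. The study's methods name the strain C57BL/6J. All of them received NMDA, a glutamate receptor agonist that damages retinal ganglion cells. The NMDA + SCF group (n = 3 libraries) then received recombinant stem cell factor (SCF), the ligand of the receptor c-kit, into the vitreous 2 days later, and the NMDA + PBS group (n = 3 libraries) received PBS at that time. The labels give NMDA alone for the controls, and PBS is named in the study's methods. There was no uninjured group here, and the number of mice behind a library was not given in the sources used here, so the p values measure the spread between these libraries. The comparison asks which retinal RNAs differed 1 week after SCF.

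Long noncoding RNAs are transcribed like messenger RNAs but act as RNA. Malat1 and Neat1 are neighbouring nuclear RNAs. Malat1 gathers in nuclear speckles, where splicing factors are stored, and Neat1 is the scaffold of paraspeckles. Miat is another nuclear RNA of neurons. Gas5 and Snhg11 carry small nucleolar RNAs in their introns, and spliced Gas5 is degraded by nonsense-mediated decay. Meg3, Rian and Mirg lie in this order in the imprinted Dlk1-Dio3 region and are expressed from the maternal chromosome. Rian carries small nucleolar RNAs, and Mirg carries a large cluster of miRNAs. Several of these RNAs are abundant in neurons of the brain and retina.

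The 3′ end of Malat1 is shown because the libraries were made from RNA bound by oligo(dT). Malat1 is not polyadenylated in the usual way: RNase P cuts its primary transcript, and the new end is protected by a triple helix in which an A-rich tract lies between U-rich motifs. Neat1 in its long form ends in the same manner. In the single-exon Malat1 transcript of 6983 bases (ENSMUST00000172812), bases 6626 to 6694 lie at chr19:5795979-5796047 on the minus strand (GRCm38, GENCODE M21), within the exon. In the single-exon long Neat1 transcript (ENSMUST00000173672), the last 73 bases lie at chr19:5824708-5824780 on the minus strand, also within the exon. Capitals mark AAAAAGCAAAA, the last 11 bases of Neat1, and TTTTGCTTTT, the reverse complement of its last 10 bases, both searched on the transcript strand only and at no overlap with each other.
Malat1: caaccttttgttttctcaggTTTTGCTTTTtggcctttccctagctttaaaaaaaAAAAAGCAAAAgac
Neat1: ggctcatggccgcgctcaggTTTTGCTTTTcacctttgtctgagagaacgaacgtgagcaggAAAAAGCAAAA
Both TTTTGCTTTT and AAAAAGCAAAA occurred in 15 of the 46852 transcripts in all 6 files that have a GENCODE sequence, or 0.032%. Singly, TTTTGCTTTT occurred in 1.45% and AAAAAGCAAAA in 0.6% of them. In Malat1 the A-rich match ended 292 bases before the end of the annotated transcript, and in Neat1 it was the end itself.

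The miRNAs inside the other members are shown because Meg3, Rian and Mirg are known as their hosts. RefSeq (GRCm38.p6) places 3 mature miRNAs within Meg3, 6 within Rian and 26 within Mirg on the same strand, and none within the other 5 members. Capitals mark the seed, bases 2 to 8. These sequences were not measured, since the libraries hold messenger-type RNA.
mmu-miR-770-5p: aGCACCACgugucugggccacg
mmu-miR-370-3p: gCCUGCUGggguggaaccuggu
mmu-miR-134-5p: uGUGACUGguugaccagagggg
mmu-miR-377-3p: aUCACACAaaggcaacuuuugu
mmu-miR-453: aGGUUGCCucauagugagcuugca
mmu-miR-496a-5p: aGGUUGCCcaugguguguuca
The first lies in Meg3 (chr12:109563710-109563731), the second in Rian (chr12:109618305-109618326) and the others in Mirg, all on the plus strand. Of the 35 mature sequences, only miR-453 and miR-496a-5p had a seed in common. The hairpin of miR-377 (mature 3p arm at chr12:109740553-109740574) was the only 1 of the 14 in Mirg that lay whole within an exon of a transcript listed in all 6 files.

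The 6 files did not list the same transcripts, and this touched every result below. List A was used for NMDA + PBS 1 and for NMDA + SCF 1, 2 and 3, and list B for NMDA + PBS 2 and 3. Within list A there is 1 control library, so no test is possible there, and list B holds controls only. The list and the treatment can therefore not be told apart for NMDA + PBS 2 and 3. A fit with the transcript list as a term sets the NMDA + SCF mean against NMDA + PBS 1 alone. The first principal component of all genes held 53.3% of the variance and separated the lists. Total fragments, as implied by the FPKM scale and not counted, came to between 3404335 and 3479957 per library in list A. In list B they came to 3977110 and 4440580. These totals were 14.1 to 18.2% of the clean read pairs. Of the summed levels of 13 marker lists, 4 did not overlap between the groups, all higher in NMDA + SCF. The sum of 5 lens markers was 19.7 to 167 FPKM in NMDA + PBS and 371 to 6770 in NMDA + SCF. Rod markers summed to 1303 to 1601 FPKM against 1611 to 1885, bipolar cell markers to 254 to 291 against 295 to 321, and the 1 erythroid marker to 18.3 to 32.3 against 33.0 to 169. Among the 9 that overlapped were the markers of neurons in general, with 1170 to 1704 FPKM in NMDA + PBS and 1496 to 1578 in NMDA + SCF. The part of these markers in the results below was not tested. In bulk retina, fewer cells of a type and less RNA per cell cannot be told apart.

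Most annotated transcripts of the members were in neither list. Of 87 transcripts of the 8 genes in GENCODE M21, 19 were in both lists, 3 in list A only, 6 in list B only and 59 in neither. Malat1 and Neat1 each had 1 of 4 transcripts listed. Gas5 had 5 of 25 in both lists, Rian 7 of 20, Meg3 2 of 11, Mirg 2 of 12 and Snhg11 1 of 5. None of the 6 Miat transcripts (chr5:112213228-112229395, minus strand) was listed, so Miat has no value, which says nothing of its level. Values were summed over the transcripts in both lists. The files also held rows of a merged assembly, 9842 in list A and 6219 in list B, which carry neither gene name nor position. They took 8.85 to 11.4% of the FPKM of a library and could not be tied to a member.

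**Figure D1:**
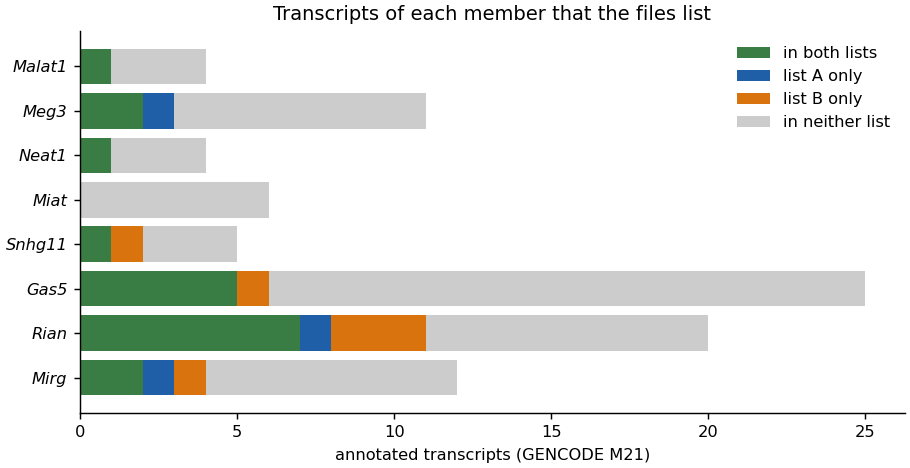
Number of annotated transcripts of each of the 8 members (horizontal axis) by whether the files list them in both lists, in list A, in list B or in neither. The grey part is the longest for Gas5, with 19 of 25 transcripts in neither list, and takes all 6 transcripts of Miat.

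**Figure D2:**
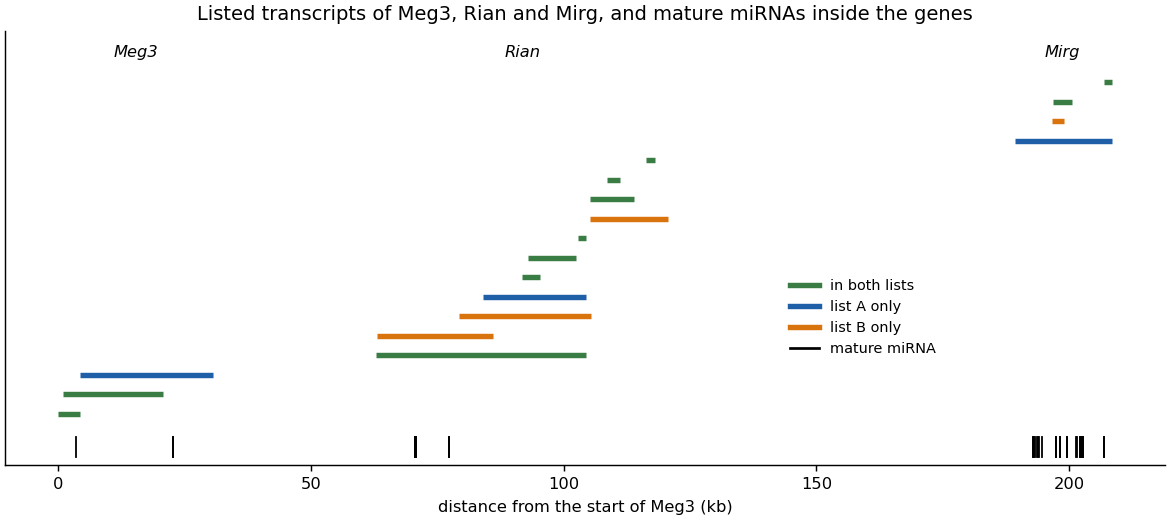
Extent, introns included, of the listed transcripts of Meg3, Rian and Mirg, in kb from the start of Meg3, coloured by list, with mature miRNAs as black ticks. Each gene has transcripts in only 1 of the lists, and the ticks are densest in Mirg, with 26 of 35.

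Across all genes, 0 of 25202 (0.0%) passed the call rule, an adjusted p of 0.001 or less and a change of 2-fold or more, and 0 (0.0%) had an adjusted p of 0.05 or less by limma on log2(FPKM + 1). None of the 7 members with a value was called. At an unadjusted p of at most 0.05, 2324 genes (9.22%) passed, and 1 of the 7 members, Malat1, was among them. The median log2 fold change (NMDA + SCF minus NMDA + PBS) was 0.013 over the 7 members, 4 positive and 3 negative, against -0.006 over all genes and -0.061 over 6579 genes of long noncoding type. Groups without overlap were found for 0 of the 7 members, against 14.1% of all genes. The lists did not overlap for 2 of them, Malat1 and Rian, against 25.3% of all genes.

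Malat1 (ENSMUSG00000092341, chr19:5795690-5802672, minus strand) divided by list and not by treatment. Its level was 0.042, 55.7 and 69.5 FPKM in NMDA + PBS 1, 2 and 3 and 0.125, 0 and 0 FPKM in NMDA + SCF 1, 2 and 3. In fragments this was 1, 1547 and 2154 in the controls and 3, 0 and 0 after SCF. NMDA + PBS 2 and 3 were high, and the remaining control lay among the NMDA + SCF libraries, so the groups overlapped. A floor of 3 fragments per library came to at most 0.126 FPKM in list A. NMDA + PBS 2 was 441-fold and NMDA + PBS 3 550-fold above this value. These ratios are not lower bounds, since NMDA + SCF 1 itself had 3 fragments. Malat1 ranked 971 and 621 among 25935 genes in these libraries and between 18696 and 20157 in the list A libraries. Counting error alone gave a 95% Wilson interval of 0.0370 to 0.0409% of fragments in NMDA + PBS 2. The upper limit was 0.00017% in NMDA + PBS 1 and 0.00026% in NMDA + SCF 1.

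The fitted log2 fold change of Malat1 was -3.95 ± 1.49 (SE, n = 3 per group). By limma its adjusted p was 0.536 and its unadjusted p 0.031. The exact two-sided permutation test gave p = 0.2, where 3 against 3 libraries cannot go below 0.1. Without NMDA + PBS 1 the value was -5.93 with an adjusted p of 0.000168, but that comparison sets list B against list A. In the settings that kept this library the adjusted p ran from 0.403 to 0.791. Within list A, the NMDA + SCF mean differed from NMDA + PBS 1 by -0.003 on the log2(FPKM + 1) scale, at 3 fragments or fewer in each library.

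The same division was looked for in other genes, with limits set after the values of Malat1 were seen. Of 3918 genes with at least 10 FPKM in both list B libraries, 105 had under 1 FPKM in all 4 list A libraries, and 9 of these were of long noncoding type. Malat1 ranked 16 among the 105 by its mean in list B. In the opposite direction, 26 of 3587 genes with at least 10 FPKM in all list A libraries had under 1 FPKM in both list B libraries. Dkk3, a secreted protein abundant in Müller glia, had 0.262, 980 and 1007 FPKM in NMDA + PBS 1, 2 and 3 and 0.261, 0.0856 and 0.172 FPKM after SCF. It is protein coding and was near 0 in the same 4 libraries as Malat1.

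**Figure D3:**
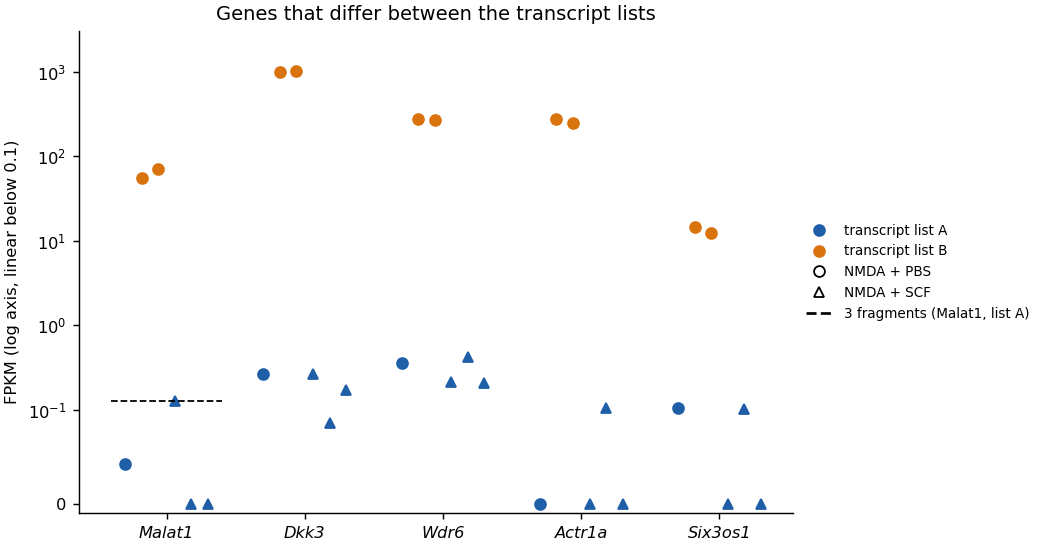
FPKM of Malat1 and of 4 other genes in the 6 libraries (log axis, linear below 0.1), circles for NMDA + PBS and triangles for NMDA + SCF, coloured by transcript list, with a dashed line at 3 fragments for Malat1 in list A. In each gene the list B libraries stand above 10 FPKM and the 4 list A libraries below 1 FPKM.

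Neat1 (ENSMUSG00000092274, chr19:5824708-5845478, minus strand) was at or below the floor everywhere. It had 2 fragments in NMDA + SCF 1, or 0.028 FPKM, and 0 in the other 5 libraries. A count of 0 allows up to 3 fragments, or 0.0325 to 0.0424 FPKM in those libraries, so no difference was detectable at this depth and no fold is given. The only listed transcript is the long form, and 3 of 4 annotated transcripts were not listed.

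Rian (ENSMUSG00000097451, chr12:109603940-109661716, plus strand) had the highest level of the members after Malat1, and it also followed the lists. It was at 7.95, 14.7 and 13.8 FPKM in NMDA + PBS 1, 2 and 3 and at 7.71, 9.06 and 8.12 FPKM in NMDA + SCF 1, 2 and 3. The list B libraries were the high ones, with a mean of 14.3 FPKM against 8.21 ± 0.590 FPKM (SD, n = 4) in list A, while NMDA + PBS 1 lay within the NMDA + SCF range. The log2 fold change was -0.46 ± 0.27 (SE, n = 3 per group) with an adjusted p of 0.588, and the exact permutation p was 0.3. Without NMDA + PBS 1 it was -0.72 with an adjusted p of 0.114, and against NMDA + PBS 1 alone it was 0.05.

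Which Rian transcript led depended on the scale. ENSMUST00000194138, of 1501 bases and 1 exon, held 52.1 ± 3.56% of the FPKM (SD, n = 6) and 33.6 ± 4.78% of the fragments. ENSMUST00000180876, of 8089 bases, held 11.2 ± 3.96% of the FPKM and 37.7 ± 10.04% of the fragments. This longest transcript in both lists had 20, 53 and 81 fragments in NMDA + PBS 1, 2 and 3 and 33, 21 and 15 in NMDA + SCF 1, 2 and 3. Here too the list B libraries were the highest.

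Meg3 (ENSMUSG00000021268, chr12:109541001-109571726, plus strand) was measured by few fragments in the transcripts common to both lists. It was at 0.980, 1.68 and 0 FPKM in NMDA + PBS 1, 2 and 3 and at 1.07, 0.959 and 1.21 FPKM in NMDA + SCF 1, 2 and 3, from at most 10 fragments per library. The NMDA + SCF libraries lay inside the range of the controls, and the log2 fold change was 0.25 ± 0.40 (SE, n = 3 per group) with an adjusted p of 0.830. The 14548-base transcript ENSMUST00000146701, listed in list A only, carried far more. It had 223 fragments (4.50 FPKM) in NMDA + PBS 1 and 312, 156 and 160 fragments (6.26, 3.08 and 3.18 FPKM) in NMDA + SCF 1, 2 and 3. The single control lay between the NMDA + SCF libraries, and with 1 control there is no test.

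Mirg (ENSMUSG00000097391, chr12:109729764-109749460, plus strand) was at 1.42, 3.71 and 1.62 FPKM in NMDA + PBS 1, 2 and 3 and at 6.93, 3.50 and 2.23 FPKM in NMDA + SCF 1, 2 and 3. NMDA + SCF 1 stood above all controls, and the other NMDA + SCF libraries lay within their range. The log2 fold change was 0.65 ± 0.44 (SE, n = 3 per group) with an adjusted p of 0.650, and the exact permutation p was 0.3. Counts ran from 9 fragments in NMDA + PBS 1 to 43 in NMDA + SCF 1. The 1906-base transcript ENSMUST00000181496 held 80.1 ± 8.82% of its FPKM (SD, n = 6). The 3 maternally expressed RNAs thus had a negative value for Rian and positive ones for Meg3 and Mirg, none past the test.

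Snhg11 (ENSMUSG00000044349, chr2:158375638-158386145, plus strand) was at 2.14, 7.41 and 3.07 FPKM in NMDA + PBS 1, 2 and 3 and at 4.62, 2.82 and 6.14 FPKM in NMDA + SCF 1, 2 and 3. All NMDA + SCF values lay within the range of the controls. The log2 fold change was 0.17 ± 0.44 (SE, n = 3 per group) with an adjusted p of 0.900, and its sign turned to -0.13 without NMDA + PBS 1. GENCODE M21 types this gene as protein coding, and the 1 transcript in both lists, ENSMUST00000137320 of 3156 bases, is a retained intron form with 23 to 93 fragments.

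Gas5 (ENSMUSG00000053332, chr1:161034422-161038539, plus strand) was at 2.34, 2.18 and 3.27 FPKM in NMDA + PBS 1, 2 and 3 and at 2.80, 1.87 and 2.10 FPKM in NMDA + SCF 1, 2 and 3. These rest on 7 to 16 fragments per library, and the groups overlapped. The log2 fold change was -0.14 ± 0.30 (SE, n = 3 per group) with an adjusted p of 0.874. Of its 5 transcripts in both lists, 4 are retained intron forms. The retained intron form ENSMUST00000162289 had 3, 2 and 9 fragments in NMDA + PBS 1, 2 and 3 and 0 in every NMDA + SCF library. ENSMUST00000161229 had 8, 1 and 4 fragments in the controls and 13, 13 and 7 after SCF. These counts are too low for a statement on single forms.

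**Figure D4:**
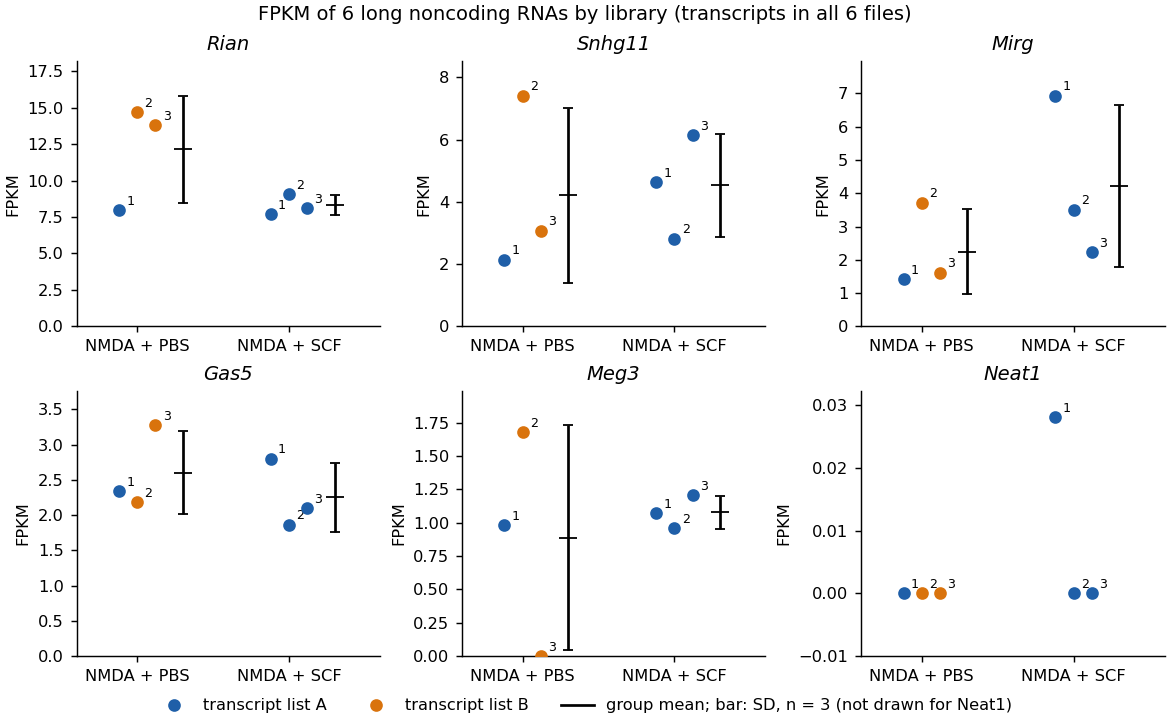
FPKM of Rian, Snhg11, Mirg, Gas5, Meg3 and Neat1 in each library (vertical axis, points numbered by replicate, coloured by transcript list), with the group mean and SD (n = 3) in black except for Neat1. The groups overlap in every panel, and in Rian the 2 orange list B points stand alone at 14.7 and 13.8 FPKM.

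Ordered by mean over the 6 libraries, the levels were 20.9 FPKM for Malat1, 10.2 for Rian, 4.37 for Snhg11, 3.24 for Mirg, 2.43 for Gas5, 0.983 for Meg3 and 0.005 for Neat1. FPKM is scaled to length, but each value covers the listed transcripts only. The mean of Malat1 comes from 2 libraries, and it was below Rian in all 4 list A libraries. Snhg11, Mirg and Gas5 overlapped in their ranges over the libraries, 2.14 to 7.41, 1.42 to 6.93 and 1.87 to 3.27 FPKM. Likeness was taken as the root mean square difference of centred log2(FPKM + 1) values over the 6 libraries. It was computed among 9826 other genes with at least 1 FPKM in every library. The genes most like Rian were Notch3 (0.0593), Fam229b (0.0648) and AW146154 (0.0649). In each of them the list B libraries were the highest, as in Rian. Those most like Snhg11 were Gm16105 (0.0999), Irf9 (0.110) and E230016M11Rik (0.115). Malat1 was below 1 FPKM in 4 libraries and was not compared in this way.

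The partner genes of these RNAs were followed in 6 lists, and none had a gene with an adjusted p of at most 0.05. Of 5 tested protein-coding neighbours in the Dlk1-Dio3 region, 1 was higher at an unadjusted p of at most 0.05 (background 4.33% higher, 4.9% lower), and the list median was 0.04. This was Ppp2r5c, a phosphatase subunit outside the imprinted genes, with a log2 fold change of 0.52. It was at 214, 156 and 149 FPKM in NMDA + PBS 1, 2 and 3 and at 247, 254 and 236 FPKM after SCF. The list B libraries were the lowest. With the transcript list as a term in the fit, which leaves NMDA + PBS 1 as the only control compared, Ppp2r5c had 0.20. Dio3, the deiodinase that inactivates thyroid hormone, had 0.92 and Dync1h1, the dynein heavy chain, had -0.43, both with a larger p.

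Of 15 other hosts of small nucleolar RNAs, 0 passed in either direction (all genes: 4.33% higher, 4.9% lower), and the median was -0.03. They ranged from -0.83 for Snhg14 to 1.82 for Snhg9, and the 3 with the smallest p were Snhg14, Snhg20 (0.55) and Epb41l4aos (1.29). Of 14 other long noncoding RNAs of neurons and retina, 1 was lower, and the median was -0.20. This was Six3os1, the RNA divergent to the eye field gene Six3, with 0.105, 14.7 and 12.3 FPKM in NMDA + PBS 1, 2 and 3 and 0, 0.103 and 0 FPKM after SCF. It divided by list as Malat1 did. Next by p came Vax2os with 0.53 and 2610307P16Rik with -0.22.

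Of 17 paraspeckle proteins, the partners of Neat1, 0 were higher and 2 lower (all genes: 4.33% higher, 4.9% lower), and the median was -0.03. The lower ones were Taf15 (-1.46) and Rbm14 (-1.39), both RNA-binding proteins. Rbm14 was at 0.167, 4.01 and 2.57 FPKM in NMDA + PBS 1, 2 and 3 and at 0, 0 and 0.165 FPKM after SCF. In both genes the list B libraries were the highest. With the transcript list as a term in the fit, and so against NMDA + PBS 1 alone, Taf15 had -0.71 and Rbm14 -0.15. Nono, a core paraspeckle protein, had 0.38. Sfpq, its partner, had the highest value of the list at 1.42 and did not pass. The lists did not overlap in 10 of the 17, against 25.3% of all genes. The counts in the other partner lists were 2 of 5 Dlk1-Dio3 neighbours, 6 of 15 hosts, 7 of 14 long noncoding RNAs, 7 of 16 speckle proteins and 2 of 10 decay factors. Of 16 nuclear speckle proteins, the surroundings of Malat1, 2 were higher and 1 lower (same background), and the median was 0.16. The splicing factor Srsf6 was at 19.5, 0 and 0 FPKM in NMDA + PBS 1, 2 and 3 and at 32.0, 25.2 and 20.3 FPKM after SCF, so it was listed at 0 in both list B libraries. Tra2b had 1.31 and Tra2a, its paralogue, had -1.08, and in each NMDA + PBS 1 lay among the NMDA + SCF libraries.

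Of 10 nonsense-mediated decay factors, which act on spliced Gas5, 2 were higher and 1 lower, with a median of 0.16. The background was 4.33% higher and 4.9% lower. Upf3a was at 104, 13.6 and 9.67 FPKM in NMDA + PBS 1, 2 and 3 and at 131, 129 and 138 FPKM after SCF. Its log2 fold change was 2.40, with an adjusted p of 0.536 (limma). It divided by list, with the list B libraries the low ones. With the transcript list as a term in the fit, and so against NMDA + PBS 1 alone, Upf3a had 0.35. Smg5, which takes part in the decay step, was at 64.0, 63.9 and 46.5 FPKM in the controls and at 83.4, 81.7 and 93.9 FPKM after SCF, with a log2 fold change of 0.58. Eif4a3, of the exon junction complex, had -0.75. The groups did not overlap in 5 of the 10, against 14.1% of all genes. This was the highest count among the 6 lists. The others had 1 of 5 Dlk1-Dio3 neighbours, 2 of 15 hosts and 4 of 14 long noncoding RNAs. Paraspeckle proteins had 3 of 17 and speckle proteins 3 of 16. Among the decay factors, the NMDA + SCF libraries were above all controls for Upf3a, Smg5 and Smg8 and below them for Smg9 and Eif4a3. Smg8 and Smg9 had an unadjusted p above 0.05.

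**Figure D5:**
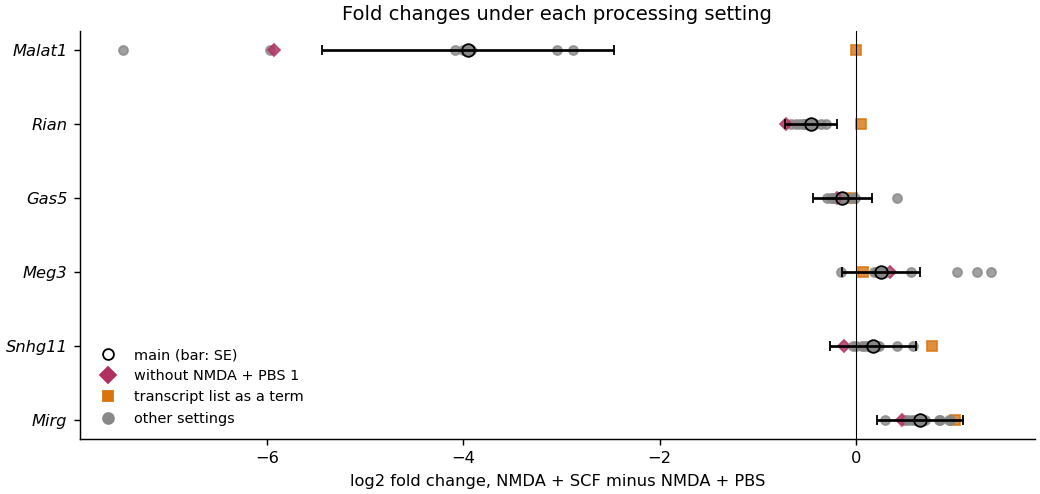
Log2 fold change (NMDA + SCF minus NMDA + PBS) of 6 members in the main fit (open circle, bar SE, n = 3 per group) and under the other settings. Malat1 is at -3.95 in the main fit and at -5.93 without NMDA + PBS 1 (diamond). The transcript list as a term (square) sets NMDA + SCF against NMDA + PBS 1 alone. With that term Malat1 is at -0.003, and Rian moves from -0.46 to 0.05.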

How the data were processed

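Retinal RNA (3 libraries of NMDA + PBS, 3 of NMDA + SCF) was enriched with oligo(dT) and sequenced on an Illumina HiSeq. The authors deposited FPKM per transcript for each library, and a table of library totals from which the count of clean reads (44925938 to 48783182) was used. Aligner, counter and strand setting are not given in the sources used here, so reads of overlapping genes on opposite strands cannot be told apart. The submitters' notes name mm9, but 98.2% of 63313 Ensembl transcripts had the positions of GENCODE M21, so coordinates are GRCm38.

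Per gene, FPKM was added up over those of the 46933 Ensembl transcripts listed in all 6 files that belong to it. Genes above 0 in at least 1 library were compared on log2(FPKM + 1), a scale that understates changes of low genes, with limma 3.58.1 (R 4.3.3, variance trend, condition only) and Benjamini-Hochberg adjustment. The script was tested on simulated data. Fragments were recovered as FPKM times length, divided by a unit for each library. The unit was fitted so that as many values as possible became whole numbers. With it, 98.4 to 98.5% of values were whole (to 0.05 fragments, or to the precision of the files). This share is therefore no independent check of the counts. Floors (3 fragments) and 95% intervals cover counting error only. Named were all members, the 3 genes of smallest p and the range of each partner list, and the 3 genes most like the highest members. Dkk3, Wdr6 and Actr1a were named after their values were seen. Some results for single genes were left out. Members and lists were chosen with earlier results of these data known. Replicate numbers were not taken as pairs.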

Additional observations from a re-analysis of the deposited data

How the results depend on the processing

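In the other settings in which calls were counted (all but the transcript list as a term, whose p values are no test), no member was called except without NMDA + PBS replicate 1, where 1 member, Malat1, was called. That setting called 191 genes, and 55 when the genes of all 6 libraries were kept, an alternative chosen after the data were examined; leaving out any other library called 0 genes and 0 members. The remaining controls there are both of list B, so the lists and the groups are the same division. Snhg14, Six3os1, Rbm14, Srsf6, Tra2b, Tra2a and Upf3a then had an adjusted p between 0.000285 and 0.0311. The sign turned for Snhg11 without mitochondrial genes (-0.0059), without NMDA + PBS replicate 1 (-0.13) and without NMDA + SCF replicate 3 (-0.036), for Meg3 without NMDA + PBS replicate 3 (-0.15), for Gas5 with voom on recovered fragments (0.41; added after the data were examined), and with the transcript list as a term for Rian (0.052), Snhg14 (0.023) and Epb41l4aos (-0.16); the cause was not tested. With all listed transcripts Meg3 had 1.23, since its long transcript is in list A only, and with voom 1.38. Over single libraries left out, Malat1 ran from -5.93 to -2.89, Rian from -0.72 to -0.31, Meg3 from -0.15 to 0.56 and Snhg11 from -0.13 to 0.58. The median of the members ran from -0.13 to 0.02 with a library left out. Counted in fragments, the main Meg3 transcript held 91.4% in place of 97.4% (n = 5 libraries, since NMDA + PBS 3 had 0) and Rian's ENSMUST00000194138 33.6% in place of 52.1%, below the 37.7% of ENSMUST00000180876.

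Same-numbered libraries did not deviate together (correlations of -0.050, -0.046 and -0.077). This cannot decide whether they were paired, since the deviations within NMDA + PBS hold the list division and those within NMDA + SCF do not. The numbers are not taken as pairs. With the replicate number as a block, 0 genes and 0 members were called, Malat1 had an adjusted p of 0.658, the members' median stayed at 0.013 and 1856 genes had an unadjusted p of at most 0.05, against 2324 without it. With upper quartile scaling 643 of those genes were higher and 1555 lower, with median-of-ratios scaling 753 and 1457, without mitochondrial genes 558 and 1562, and in the main fit 1090 and 1234. At an adjusted p of at most 0.05, voom called 2 genes and the main fit 0. Depth limits Neat1, Meg3 and Gas5 most, at 16 fragments or fewer per library in the transcripts common to both lists.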
